A study of Homo sapiens with 9 samples.

Results

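The 8 genes described here encode enzymes that reduce or oxidise steroids: AKR1C1, AKR1C2 and AKR1C3 of the aldo-keto reductases, SRD5A1 and SRD5A3 of the steroid reductases, and HSD17B6, HSD17B10 and HSD17B11 of the hydroxysteroid dehydrogenases. They were taken by symbol from the count table, where they were 8 of 28216 genes. Messenger RNA was sequenced in 9 libraries from prostate cancer cell lines, 3 in each of 3 groups, to compare PC3 with LNCaP cells and androgen with vehicle in LNCaP cells. PC3 cells were untreated and grown in F12K medium with 10% fetal bovine serum (FBS). LNCaP cells (clone FCG) were held for 24 h in RPMI medium lacking phenol red, with 10% charcoal-stripped FBS, which removes steroids. They then received an androgen at 10 nM, or 0.01% ethanol as vehicle, for 48 h. The labels name the androgen as dihydrotestosterone (DHT), while the study's text names the synthetic androgen R1881 for its androgen experiments, so the groups are called androgen-treated and vehicle-treated here. Every library carried the genotype label WT and each line came from a metastatic tumour, so neither stands for a tumour confined to the prostate. Cell line, medium and serum changed together between PC3 and LNCaP and cannot be told apart, and within LNCaP only the treatment differed.

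Androgen strength in a prostate cell depends on enzymes that convert steroids inside the cell. Steroid reductases of the SRD5A type turn testosterone into the stronger DHT, AKR1C3 makes testosterone from its weaker precursor, and AKR1C2 inactivates DHT. Dehydrogenases of the HSD17B type oxidise or reduce steroids, and several also act on fatty acids, retinoids or amino acid breakdown products. AKR1C enzymes are also known for reducing prostaglandins and progesterone. SRD5A3 is chiefly known for making dolichol, the lipid carrier on which sugar chains for glycoproteins are built.

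The 3 AKR1C genes lie side by side on chromosome 10 of the human genome (GRCh38) and are alike enough to matter for how reads were assigned. GENCODE 44 places AKR1C1 at chr10:4963253-4983283 on the plus strand, AKR1C2 at chr10:4987775-5018031 on the minus strand and AKR1C3 at chr10:5035354-5107686 on the plus strand. Their coding sequences are each 972 bases long. AKR1C1 and AKR1C2 differed at 19 of these bases (98.1% identical), AKR1C1 and AKR1C3 at 83, and AKR1C2 and AKR1C3 at 87. The reads were 74 bases long, and 308 of the 899 coding windows of that length were the same in AKR1C1 and AKR1C2. A window with the most differences between AKR1C1 and AKR1C2, coding bases 89 to 162 counted from the start codon, is shown because a read from it can be assigned. Capitals mark the positions at which the 3 genes are not all alike. The windows lie at chr10:4965918-4965991 (plus), chr10:5001604-5001677 (minus) and chr10:5096414-5096487 (plus), respectively.
AKR1C1: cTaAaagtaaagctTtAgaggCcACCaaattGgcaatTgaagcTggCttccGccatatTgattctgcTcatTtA
AKR1C2: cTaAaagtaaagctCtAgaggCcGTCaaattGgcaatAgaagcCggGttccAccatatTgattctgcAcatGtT
AKR1C3: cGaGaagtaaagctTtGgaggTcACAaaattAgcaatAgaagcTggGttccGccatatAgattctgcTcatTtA

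This window held 10 of the 19 differences between AKR1C1 and AKR1C2, and 9 between AKR1C1 and AKR1C3. Over all annotated transcripts, 28.1% of the distinct stretches of 74 bases of AKR1C1 and 27.4% of those of AKR1C2 also occurred elsewhere in the genome or in another gene's transcripts, against 3.40% for AKR1C3. AKR1C1 and AKR1C2 shared 1634 such stretches with each other. Reads from shared stretches map to several places and were left out of the counts, so AKR1C1 and AKR1C2 counts are understated and a read with a sequencing error can be assigned to the wrong gene. The other members were nearly free of such sharing, at 0.752% or less of their stretches.

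**Figure D1:**
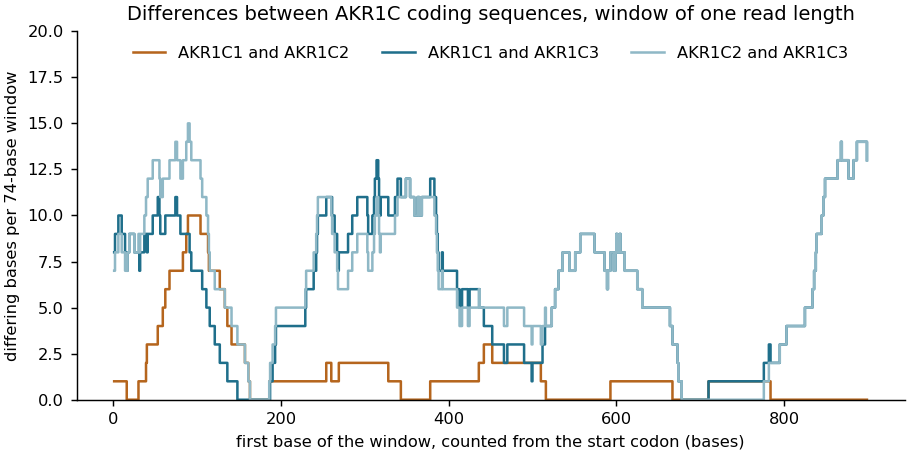
Number of differing bases (vertical axis) in each window of 74 bases of the AKR1C coding sequences, by the first base of the window counted from the start codon (horizontal axis), for the 3 gene pairs. AKR1C1 and AKR1C2 differ by 2 bases or fewer in 85.9% of the 899 windows, and by 10 at most, near the start of the coding sequence.

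The DNA before the transcription starts of AKR1C1 and AKR1C2 was also nearly the same. RefSeq promoter windows (GRCh38.p14) were found for 7 of the 8 members, in 9 entries, and HSD17B6 had none. Of the 250 bases before the start, AKR1C1 and AKR1C2 shared an unbroken run of 245 bases, whereas the 2 AKR1C3 windows were 71.0% to 73.1% identical to that of AKR1C1. The 84 bases of the shared run before any annotated exon base in these windows are printed once, because both genes carry them. PC3 had more AKR1C1 and less AKR1C2 than vehicle-treated LNCaP, and any part of these windows in that was not tested. For AKR1C1 the 84 bases lie at chr10:4963169-4963252 on the plus strand, before every annotated exon. For AKR1C2 they lie at chr10:5004024-5004107 on the minus strand, which is inside the annotated gene (chr10:4987775-5018031).
AKR1C1 and AKR1C2: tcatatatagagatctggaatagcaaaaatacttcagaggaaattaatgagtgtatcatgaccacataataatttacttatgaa

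The promoter window of HSD17B11 is shown because this member rose the most with androgen. It covers chr4:87391189-87391438 on the minus strand and is free of annotated HSD17B11 exons. Capitals mark its CCAAT motif, searched on both strands, which 32.0% of the 35116 RefSeq promoter windows of that length hold.
HSD17B11: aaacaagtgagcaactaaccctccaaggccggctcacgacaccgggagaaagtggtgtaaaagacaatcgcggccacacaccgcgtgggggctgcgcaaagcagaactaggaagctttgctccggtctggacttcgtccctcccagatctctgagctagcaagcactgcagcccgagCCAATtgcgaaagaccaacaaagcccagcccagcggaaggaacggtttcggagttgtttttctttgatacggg

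The letters AGAACA, 1 arm of the DNA element through which androgens act, were found on either strand in 0 of the 9 windows of the members and in 12.4% of all RefSeq windows. This describes only the 250 bases searched.

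The libraries held 17397706 to 25640325 counts on genes, with 21094326 to 23460708 in androgen-treated LNCaP and 17397706 to 18674795 in vehicle-treated LNCaP, so the androgen-treated libraries were all deeper. Levels are given as CPM, the counts of a gene scaled to a fixed library total, after TMM scaling over the 9 libraries. A gene was tested where it exceeded 3 CPM in at least 3 libraries of a comparison, and called at a fold change of 2 or more with an adjusted p below 0.05 (edgeR, quasi-likelihood, Benjamini-Hochberg). Of the PC3 libraries, replicate 3 stood apart from the others, with a chi-square per gene of 31.5 and 54.4 against them where they differed by 11.6 from each other. The 6 luminal prostate markers, KLK3 among them, summed to 9562 to 9956 CPM in androgen-treated, 2534 to 2897 in vehicle-treated LNCaP and 512 to 857 in PC3, where 1 or 2 of the 6 were at 0 and HOXB13 (600 ± 180 CPM, SD, n = 3) made up most of the sum. The 4 epithelial markers were above 0 in every library. The 5 stromal markers summed to 37.2 to 49.9 CPM in PC3, 12.7 to 15.2 in androgen-treated and 22.5 to 25.2 in vehicle-treated LNCaP, and the 5 immune and endothelial markers to 2.43 to 3.86, 6.89 to 7.94 and 16.1 to 17.9. VWF made up nearly all of the latter sum in LNCaP, with 466 counts with androgen, 968 with vehicle and 4 in PC3. PECAM1, PTPRC and CD14 went the other way, with 197, 16 and 17 counts in PC3. They had 0, 0 and 2 counts with androgen and 1, 0 and 4 with vehicle. The part of these cell types in the results below was not tested. In bulk RNA, fewer expressing cells and less RNA per cell cannot be told apart. The labels do not say whether replicates were separate cultures, so p-values measure the spread between these libraries only.

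HSD17B10, SRD5A1, SRD5A3 and HSD17B11 passed the filter in all 3 comparisons, and AKR1C3 in the 2 with PC3, through the PC3 libraries alone. AKR1C1, AKR1C2 and HSD17B6 passed in none and are described by their counts. Between PC3 and androgen-treated LNCaP, 3 of the 4 members tested in every comparison were called, SRD5A1, SRD5A3 and HSD17B11, which were lower in PC3, where 46.0% of the 12541 genes tested were called, 24.0% higher and 22.1% lower. Between PC3 and vehicle-treated LNCaP, 1 of the 4 was called, SRD5A3, which was lower in PC3, against 43.2% of 12686 genes. AKR1C3 also passed both thresholds, higher in PC3, but is left out of these counts because the level that admitted it to the test fixed its direction. Between androgen and vehicle 1 member was called, HSD17B11, which was higher with androgen, against 14.0% of 11697 genes, 6.54% higher and 7.49% lower. These comparisons share libraries in pairs and are given side by side, not as independent evidence.

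**Figure D2:**
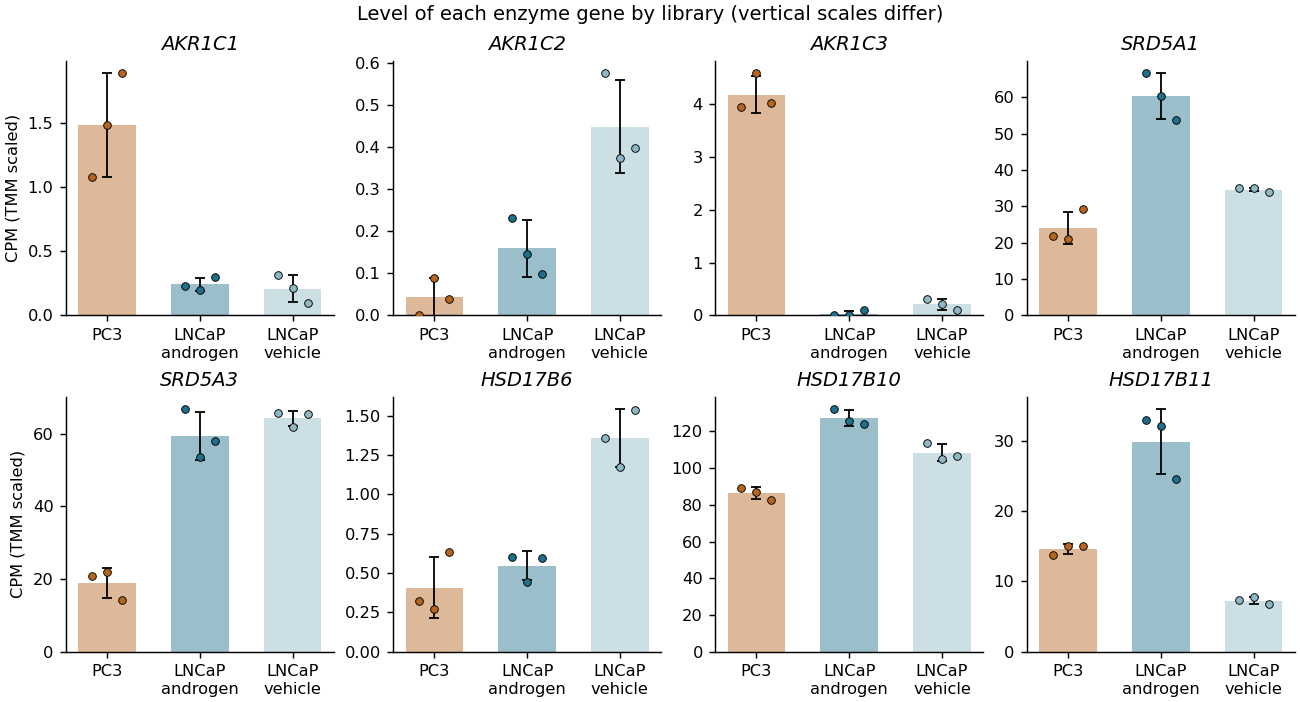
CPM (TMM scaled, vertical axis, scale set for each gene) of the 8 genes in PC3, androgen-treated and vehicle-treated LNCaP. Points are libraries in replicate order, bars are means and whiskers are SDs (n = 3). AKR1C1 and AKR1C3 are highest in PC3, HSD17B11 and SRD5A1 in androgen-treated LNCaP, and AKR1C2 and HSD17B6 in vehicle-treated LNCaP.

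Per length, HSD17B10 was the most abundant member in every group. In CPM per kb of the GENCODE canonical transcript its mean level was 90.5 in PC3, 133 in androgen-treated and 114 in vehicle-treated LNCaP, and the next member was at 8.17 (HSD17B11), 16.7 (HSD17B11) and 15.8 (SRD5A3), respectively. In androgen-treated LNCaP, HSD17B11 and SRD5A3 (14.6 CPM per kb) overlapped in their library values, and SRD5A1 followed at 8.56. In vehicle-treated LNCaP, SRD5A3 was followed by SRD5A1 at 4.92 and HSD17B11 at 4.06, with no overlap between neighbours. In PC3, SRD5A3 (4.66), AKR1C3 (3.53) and SRD5A1 (3.42) overlapped with their neighbours in the order. The remaining members were below 1 CPM per kb in every group, as was AKR1C3 in LNCaP. Divided by the union of all annotated exons instead, AKR1C3 in PC3 fell below SRD5A1 and SRD5A3, at 1.07 against 3.15 and 2.45 CPM per kb, so the order of these 3 depended on the length used.

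AKR1C3 encodes the enzyme that makes testosterone from androstenedione and also forms prostaglandins of the F type. It had 99, 102 and 102 counts in the PC3 libraries, 0, 0 and 2 in the androgen-treated and 6, 4 and 2 in the vehicle-treated LNCaP libraries. PC3 stood far above both LNCaP groups, while the LNCaP groups overlapped. In CPM the level was 4.18 ± 0.35 (SD, n = 3) in PC3, which was near the filter of 3 CPM. It was 20.1-fold that of vehicle-treated LNCaP by the summed counts (95% Poisson interval of the ratio 11.4 to 39.4). No p is given for these comparisons, because AKR1C3 was tested only through its PC3 level. Against androgen-treated LNCaP, with 2 counts in all, the ratio was 129 with an interval of 35.5 to 1074. Both counts were in replicate 3, and without that library the group was at 0. These intervals cover counting error only.

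Within LNCaP, AKR1C3 was too low for the filtered test. Its summed counts were 12 with vehicle and 2 with androgen, although the androgen-treated libraries were deeper, giving a ratio of 6.43 (95% interval 1.43 to 59.1) in favour of vehicle. Without a filter, edgeR gave an adjusted p of 0.0435 for this difference, 0.0680 with the replicate block, and DESeq2 gave 0.143. The difference was therefore not settled at this depth.

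Transcripts of 8 genes that mark PC3 against LNCaP (VIM, CAV1, CAV2, CD44, ANXA1, AXL, ITGA3 and MMP14) were also present in the LNCaP libraries at a low level. Their sum was 3954 to 4500 CPM in PC3, 17.3 to 39.7 in androgen-treated LNCaP with 0 of 8 at 0 counts, and 10.1 to 17.8 in vehicle-treated LNCaP with at most 1 of 8 at 0. That was 0.414% to 0.951% and 0.243% to 0.427% of the PC3 mean. AKR1C3 stood at 7.51%, 5.10% and 2.37% of its PC3 mean in the vehicle-treated libraries, above the marker share in each, and at 0%, 0% and 2.38% in the androgen-treated ones. AKR1C1 stood at 6.69% to 21.2% of its PC3 mean in the 6 LNCaP libraries. AKR1C3 and AKR1C1 counts in LNCaP were larger shares of the PC3 level than those of the markers. The exception was AKR1C3 in androgen-treated replicates 1 and 2, where it had 0 counts. Where present, AKR1C3 had only 2 to 6 counts per LNCaP library. The markers were chosen as genes that mark PC3 against LNCaP, so a low LNCaP share was built into their choice. The source of these low counts was not tested.

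AKR1C1, which inactivates progesterone by reducing it, had 27, 33 and 48 counts in PC3, 5, 4 and 6 in androgen-treated and 6, 4 and 2 in vehicle-treated LNCaP. Every PC3 library was above every LNCaP library, and the LNCaP groups overlapped. By summed counts the PC3 level was 6.15-fold that of androgen-treated (95% interval 3.57 to 11.4) and 7.18-fold that of vehicle-treated LNCaP (3.95 to 14.3). In the fits without a filter these differences passed (edgeR adjusted p = 7.74e-05 and 0.000194). At 1.48 ± 0.41 CPM in PC3, AKR1C1 was nevertheless under the filter used for calls.

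AKR1C2, which inactivates DHT by reducing it to a diol, went the other way. It had 0, 2 and 1 counts in PC3, 5, 3 and 2 in androgen-treated and 11, 7 and 8 in vehicle-treated LNCaP. Vehicle-treated LNCaP was the highest group without overlap, and PC3 and androgen-treated LNCaP met at 2 counts. The summed counts gave a ratio of 10.9 (95% interval 3.33 to 56.1) for vehicle-treated LNCaP over PC3 and 2.79 (1.30 to 6.47) for vehicle over androgen. Without a filter the adjusted p for PC3 against vehicle-treated LNCaP was 0.00166 by edgeR and 0.00272 by DESeq2. For PC3 against androgen-treated LNCaP it was 0.0897 by edgeR, 0.180 with the replicate block and 0.202 by DESeq2. For androgen against vehicle it was 0.0272 by edgeR, 0.0377 with the replicate block and 0.130 by DESeq2, so that the call depended on the tool.

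The makeup of the AKR1C transcripts thus differed between the lines. Per kb of exon union, AKR1C3 made up 82.2% to 89.2% of the AKR1C total in the 3 PC3 libraries, AKR1C1 10.8% to 17.3% and AKR1C2 at most 1.09%. In vehicle-treated LNCaP, AKR1C2 was the largest part in every library, at 43.7% to 64.0%. With the canonical transcript as length AKR1C3 was larger in replicates 1 and 2. These vehicle shares rest on only 7 to 11 counts of AKR1C2 and 2 to 6 each of AKR1C1 and AKR1C3 per library. With lengths that count only uniquely placed stretches, AKR1C3 still made up 76.6% to 85.3% in PC3. In androgen-treated LNCaP the shares rest on 10, 7 and 10 counts per library and are not ordered here. AKR1C4, a further gene of the family, had 1 count in all 9 libraries, and SRD5A2, the reductase of the normal prostate, was at 0.02 CPM or less on average in each group.

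SRD5A1 encodes the type of steroid reductase that makes DHT in many tissues outside the normal prostate. Its level was 21.9, 21.0 and 29.2 CPM in PC3, 66.5, 60.4 and 53.8 in androgen-treated and 34.9, 34.9 and 34.0 in vehicle-treated LNCaP. The 3 groups did not overlap, with androgen-treated LNCaP highest and PC3 lowest. Androgen-treated exceeded vehicle-treated LNCaP by a log2 fold change of 0.77 (SE 0.06, adjusted p = 1.85e-07 by edgeR), a 1.71-fold difference that was under the threshold of 2. PC3 was lower than androgen-treated LNCaP by 2.52-fold (log2 fold change -1.34, SE 0.14, adjusted p = 4.62e-05), which was called, and lower than vehicle-treated LNCaP by 1.46-fold (log2 fold change -0.55, SE 0.13, adjusted p = 0.00511), which was not. Without PC3 replicate 3 the log2 fold changes were -1.52 and -0.74.

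SRD5A3 differed by line and little by treatment. It was at 20.8, 21.8 and 14.1 CPM in PC3, 66.8, 53.7 and 58.0 in androgen-treated and 65.7, 61.9 and 65.4 in vehicle-treated LNCaP. Every LNCaP library was above every PC3 library, and the LNCaP groups overlapped. PC3 was 3.18-fold lower than androgen-treated LNCaP (log2 fold change -1.67, SE 0.17, adjusted p = 3.07e-05) and 3.46-fold lower than vehicle-treated LNCaP (log2 fold change -1.79, SE 0.15, adjusted p = 1.28e-05). Within LNCaP the log2 fold change of androgen over vehicle was -0.14 (95% interval -0.28 to -0.01, adjusted p = 0.0545 by edgeR). It was -0.22 (adjusted p = 0.00232) without androgen-treated replicate 1, the highest of its group, and -0.14 (adjusted p = 0.0146) with the replicate block. Over 17 alternative fits it ranged from -0.22 to -0.08 and the adjusted p from 0.00232 to 1. In GENCODE 44 the gene (chr4:55346213-55373100, plus strand) shares 1787 exon bases with another protein-coding gene model on its strand that is not a row of the count table, so reads from that stretch cannot be told apart.

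The balance of the 2 reductases was compared as a ratio. Per kb of canonical transcript, the SRD5A1 to SRD5A3 ratio was 0.575, 0.649 and 0.536 in androgen-treated and 0.307, 0.326 and 0.300 in vehicle-treated LNCaP. All androgen-treated libraries were above all vehicle-treated ones, and the geometric means differed 1.88-fold (exact permutation test, two-sided p = 0.1, the smallest that 3 against 3 allow). In PC3 the ratio was 0.608, 0.556 and 1.19. The high value belonged to replicate 3, which had the most SRD5A1 and the least SRD5A3 of the PC3 libraries, and without it the PC3 ratios lay within the range of androgen-treated LNCaP. The geometric mean of PC3 was 1.26-fold that of androgen-treated LNCaP (exact permutation test, two-sided p = 0.6) and 2.38-fold that of vehicle-treated LNCaP (p = 0.1).

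**Figure D3:**
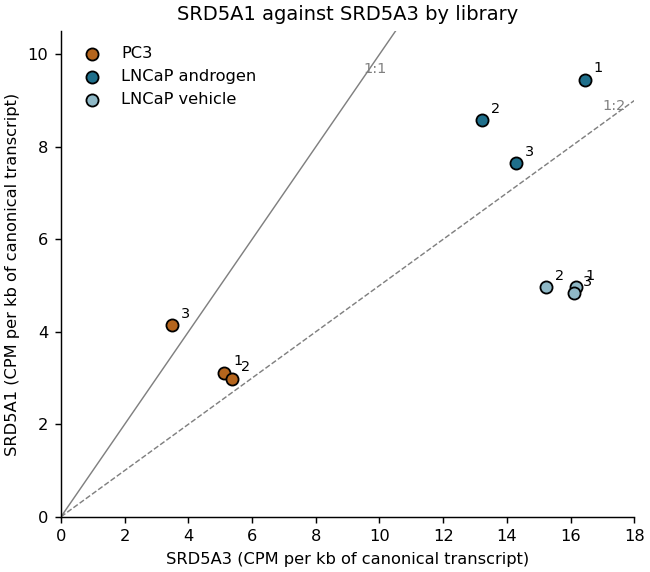
SRD5A1 (vertical) against SRD5A3 (horizontal) in CPM per kb of canonical transcript, 1 point per library, with the replicate number beside it. Lines mark ratios of 1:1 and 1:2. Both LNCaP groups lie within an SRD5A3 range of 13.2 to 16.4, while SRD5A1 is at 7.65 to 9.45 with androgen and 4.83 to 4.97 with vehicle. PC3 replicate 3 lies above the 1:1 line.

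HSD17B11 encodes a dehydrogenase of lipid droplets that can oxidise a DHT breakdown product. Of the 4 members tested between androgen and vehicle it had the largest fold change. Its level was 32.9, 32.1 and 24.5 CPM with androgen and 7.27, 7.73 and 6.70 with vehicle, against 13.8, 15.0 and 15.0 in PC3. The groups were fully separate, and PC3 lay between the LNCaP groups. Androgen-treated exceeded vehicle-treated LNCaP 4.04-fold (log2 fold change 2.02, SE 0.12, adjusted p = 4.46e-09 by edgeR), higher in 3 of 3 libraries. Over 17 alternative fits the log2 fold change was 1.95 to 2.13.

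The direction of the difference between the lines in HSD17B11 therefore depended on which LNCaP group was used. PC3 was 2.07-fold lower than androgen-treated LNCaP (log2 fold change -1.05, SE 0.13, adjusted p = 0.000101) and 1.98-fold higher than vehicle-treated LNCaP (log2 fold change 0.99, SE 0.10, adjusted p = 4.42e-05). Both estimates lay at the threshold of 2, and the call followed small changes. Without androgen-treated replicate 1 or 2 the first log2 fold change was -0.98 or -0.99 and no longer called, and tested directly against a fold change of 2 its adjusted p was 0.357. Without PC3 replicate 1 or vehicle-treated replicate 2 the second was 1.01 or 1.04 and called. The gene lies at chr4:87336515-87391188 on the minus strand and shares 117 exon bases with a non-coding gene model on that strand.

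HSD17B10 encodes a mitochondrial dehydrogenase that acts in isoleucine breakdown and is also a subunit of the mitochondrial RNase P, which cuts transfer RNAs. It varied least. It was at 89.4, 86.8 and 82.9 CPM in PC3, 132, 126 and 124 in androgen-treated and 114, 105 and 106 in vehicle-treated LNCaP. The groups did not overlap, with PC3 lowest, yet every fold change was under 2. PC3 was lower by 1.49-fold than androgen-treated (log2 fold change -0.57, SE 0.06, adjusted p = 3.44e-05) and by 1.27-fold than vehicle-treated LNCaP (log2 fold change -0.35, SE 0.06, adjusted p = 0.00072). Androgen-treated exceeded vehicle-treated LNCaP 1.15-fold (log2 fold change 0.20, SE 0.04, adjusted p = 0.000504). Small differences passed the adjusted p widely.

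HSD17B6, which can restore DHT from its diol, was rare. It had 8, 6 and 16 counts in PC3, 13, 9 and 12 in androgen-treated and 26, 22 and 31 in vehicle-treated LNCaP. Vehicle-treated LNCaP was the highest group without overlap, and the other two groups overlapped. By summed counts it was 2.49-fold that of androgen-treated LNCaP (95% interval 1.65 to 3.84) and 3.30-fold that of PC3 (2.14 to 5.21). Without a filter the adjusted p for androgen against vehicle was 0.000711 by edgeR, 5.98e-05 with the replicate block and 0.0112 by DESeq2, and for PC3 against androgen-treated LNCaP it was 0.385 by edgeR. Its exons share 132 bases with PRIM1 on the opposite strand, and 1 read on the opposite strand was found in the 9 libraries.

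Most genes tested had an adjusted p under 0.05 at some fold change, so the members are set beside that background. By the adjusted p alone, 4 of the 4 members tested in every comparison were lower in PC3 than in androgen-treated LNCaP, where 84.0% of all genes passed, 42.9% higher and 41.1% lower. Against vehicle-treated LNCaP, 1 was higher and 3 lower, where 83.4% passed, 42.6% higher and 40.8% lower. Between androgen and vehicle, 3 of 4 were higher and 0 lower, where 74.9% passed, 37.1% higher and 37.8% lower. With the replicate block SRD5A3 also passed, lower with androgen (edgeR, adjusted p = 0.0146). The groups of these members did not overlap for 4, 4 and 3, where this held for 86.2%, 85.5% and 76.8% of all genes tested. With so few members these counts do not set them apart from other genes.

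In LNCaP, HSD17B11, SRD5A1 and HSD17B10 were higher with androgen, and HSD17B6 and AKR1C2 with vehicle, without overlap between the groups. For AKR1C2 the test result depended on the tool. The groups overlapped for SRD5A3, AKR1C1 and AKR1C3, although AKR1C3 had 12 counts with vehicle and 2 with androgen. Absence of overlap between these groups held for 76.8% of all genes tested.

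**Figure D4:**
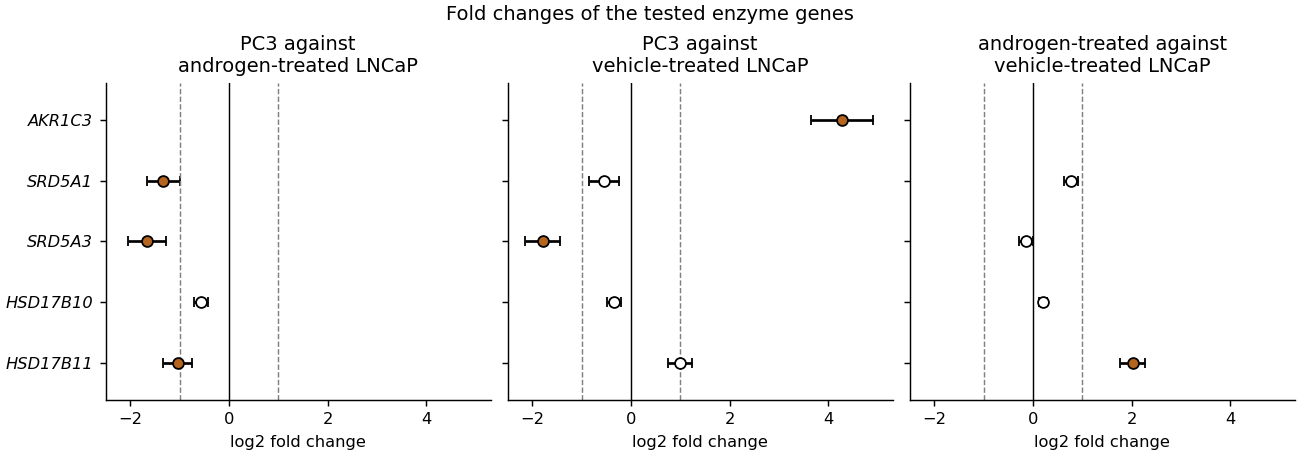
Log2 fold change (horizontal axis, first group over second) with its 95% interval for the members that passed the filter, in 3 comparisons. Filled points passed both the adjusted p of 0.05 and the fold change of 2 (dashed lines). AKR1C3 against androgen-treated LNCaP is left out because that group had 2 counts. AKR1C3 was tested only through its PC3 level. HSD17B11 changes sign between the first and second panels and is at 2.02 in the third.

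By pattern over the 9 libraries, measured as the root mean square difference of centred log2 CPM among 12838 genes, the genes closest to SRD5A1 were SHISA4 (0.0552), STX3 (0.0609) and C16orf58 (0.0790). Those closest to SRD5A3 were ATP5F1D (0.0756), SLC25A11 (0.105) and REEP6 (0.111). HSD17B10 was nearest to AHCY (0.0340) and PSMB4 (0.0356), and HSD17B11 to NFKB2 (0.102), C17orf58 (0.133) and MRPS18A (0.164). AKR1C3 had no gene as close, with FRMD3 (0.363), EVA1C (0.401) and SCARA3 (0.407) nearest. For the 3 members under the filter the nearest were MAP6D1, SEMA3F and CLU for AKR1C1 (0.252 to 0.295), LBR, TUB and VTA1 for AKR1C2 (0.264 to 0.279) and PHGDH, C1QTNF3 and KIAA1958 for HSD17B6 (0.195 to 0.240). With 3 groups of 3 libraries, many genes share any given pattern.

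The wider pathway was read from 10 lists with 90 further genes. Of these, 54 were tested between androgen and vehicle, and 5 were higher and 3 lower with androgen, where 14.0% of all genes were called, with a median log2 fold change of 0.23 against -0.01 over all genes tested. Of 56 tested between PC3 and androgen-treated LNCaP, 6 were higher and 23 lower in PC3, where 24.0% and 22.1% of all genes were (median -0.68 against 0.04). Of 56 tested between PC3 and vehicle-treated LNCaP, 7 were higher and 22 lower, where 22.2% and 21.0% of all genes were (median -0.52 against 0.03). Some of these genes passed the filter only through the group where they were high, which fixed their direction. Between PC3 and androgen-treated LNCaP these included CYP3A5, HSD11B2, UGT2B11, UGT2B28 and HSD17B1 through androgen-treated LNCaP, and HSD17B2, PAPSS2 and PLIN2 through PC3. Such genes remain in these counts and medians and in the counts per list below.

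Upstream of the members, CYP17A1, HSD3B1, HSD3B2 and CYP11A1, enzymes that make androgens from cholesterol, were at 0 or on average under the filter level. CYP17A1 was at 0 counts in all 9 libraries, HSD3B1 and HSD3B2 were at 0.20 CPM or less on average in every group and CYP11A1 at 0.82 or less. Of the 6 of 11 genes of this list that passed the filter, CYB5A, an electron carrier for CYP17A1, was the only one called in any comparison. It rose with androgen, at 403 ± 6.71 against 196 ± 2.60 CPM (log2 fold change 1.01, SE 0.03, adjusted p = 2.99e-11), and was at 57.1 ± 8.02 CPM in PC3.

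Among 9 other HSD17B genes, 2 were higher and 3 lower in PC3 than in androgen-treated LNCaP, where 24.0% and 22.1% of all genes were. Against vehicle-treated LNCaP 2 were higher and 4 lower, where 22.2% and 21.0% of all genes were. Between androgen and vehicle 0 of 6 tested were called (edgeR). By adjusted p alone 4 were higher and 1 lower, where 37.1% and 37.8% of all genes were. HSD17B2, which inactivates testosterone and oestradiol, was at 10.8 ± 0.52 CPM in PC3 (log2 fold change 2.60, SE 0.20 against androgen-treated LNCaP). No p is given, because HSD17B2 was tested only through its PC3 level. It had 110 counts with androgen and 5 with vehicle in LNCaP, a ratio of 20.5 (95% interval 8.54 to 64.5), under the filter. HSD17B8, a mitochondrial fatty acid synthesis enzyme, was at 3.02 ± 0.48 CPM in PC3 and 33.5 ± 1.80 in androgen-treated LNCaP (log2 fold change -3.48). HSD17B1, which makes oestradiol, was at 0.52 ± 0.20 and 3.80 ± 0.34 CPM, respectively (log2 fold change -2.90). HSD17B1 passed the filter only through androgen-treated LNCaP, which fixed its direction.

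Of the other reductases and retinol-type dehydrogenases, RDH11 alone of 7 passed the filter, and it rose with androgen, at 1204 ± 17.9 against 576 ± 6.29 CPM (log2 fold change 1.03, SE 0.03, adjusted p = 2.07e-11). AKR1D1, which reduces steroids in bile acid synthesis, had 94 counts with androgen, 3 with vehicle and 5 in PC3. Of other aldo-keto reductases, AKR1A1 was at 33.8 ± 2.17 CPM in PC3 and 186 ± 9.86 in androgen-treated LNCaP (log2 fold change -2.47), without a detected difference between androgen and vehicle (log2 fold change -0.00, SE 0.04, adjusted p = 0.948). AKR1E2 had 154 counts in PC3 and 0 in both LNCaP groups, which made it at least 43.9-fold higher in PC3 than in androgen-treated LNCaP with a floor of 3 counts over the group.

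Of the 3 genes tested for other steroid conversions, 3 were lower in PC3 than in androgen-treated LNCaP. So were 2 of 6 sulfation and 4 of 4 glucuronidation genes, while 1 sulfation gene was higher. Of all genes tested, 22.1% were lower and 24.0% higher. CYP3A5, HSD11B2, UGT2B11 and UGT2B28 passed the filter through androgen-treated LNCaP alone, which fixed their direction. CYP3A5, which hydroxylates testosterone, had 4 counts in PC3. It was at 6.64 ± 1.09 CPM with androgen against 1.79 ± 0.15 with vehicle (log2 fold change 1.85, SE 0.18). No p is given, because CYP3A5 was tested there only through its level with androgen. HSD11B2, which inactivates cortisol, was at 0.32 ± 0.19 CPM in PC3 and 27.0 ± 1.02 in androgen-treated LNCaP, and H6PD, which supplies reducing power for steroid reactions in the endoplasmic reticulum, at 30.9 ± 2.55 and 70.3 ± 3.61. Of the sulfation genes, SULT1A1 and SULT2B1 were lower in PC3 (log2 fold changes -5.55 and -5.21 against androgen-treated LNCaP). PAPSS2, which makes the sulfate donor, was higher in PC3, at 95.6 ± 25.3 against 0.32 ± 0.25 CPM. PAPSS2 passed the filter only through PC3, which fixed its direction. The glucuronidation genes of the UGT2B family, a family of close paralogs for which shared sequence was not measured here, so that their counts are uncertain, moved in both directions with androgen. UGT2B28 rose to 169 ± 25.4 from 1.29 ± 0.29 CPM, and UGT2B17 and UGT2B15 fell to 3.56 ± 0.37 and 4.01 ± 0.77 from 242 ± 32.3 and 158 ± 15.1.

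The last 3 lists follow other known roles of the members. In the dolichol pathway of SRD5A3, 1 of 11 genes was higher and 3 were lower in PC3 than in androgen-treated LNCaP. Of all genes tested, 24.0% were higher and 22.1% lower. DOLK, which phosphorylates dolichol, was at 18.1 ± 1.82 against 70.2 ± 7.03 CPM (log2 fold change -1.97), DPM3 at 15.6 ± 0.32 against 51.1 ± 2.25 (log2 fold change -1.72) and DOLPP1 at 16.3 ± 4.49 against 49.7 ± 2.15 (log2 fold change -1.62). DPAGT1, which starts the sugar chain on dolichol, was higher, at 84.2 ± 13.4 against 40.2 ± 2.44 (log2 fold change 1.05). With androgen, 0 of the 11 were called (edgeR). By adjusted p alone 9 were higher and 1 lower, where 37.1% and 37.8% of all genes were, with a median log2 fold change of 0.38, whereas SRD5A3 itself was at -0.14.

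Of all genes tested, 22.1% were lower in PC3 than in androgen-treated and 21.0% than in vehicle-treated LNCaP. In the list for HSD17B10, 4 of 9 genes were lower in PC3 than in each LNCaP group and 0 were higher. The 4 act in the breakdown of branched-chain amino acids: ACADSB at 23.6 ± 2.96 against 236 ± 14.7 CPM in androgen-treated LNCaP (log2 fold change -3.33), DBT (log2 fold change -2.60), BCAT2 (log2 fold change -1.57) and BCKDHB (log2 fold change -1.36). The RNase P partners of HSD17B10, TRMT10C and PRORP, were lower in PC3 by less than 2-fold, with log2 fold changes of -0.27 and -0.80. Within LNCaP 0 of the 9 were called (edgeR). By adjusted p alone 5 were higher and 3 lower, where 37.1% and 37.8% of all genes were.

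The lipid droplet list of HSD17B11 held PLIN2, the main coat protein of droplets outside fat tissue. PLIN2 was at 49.9 ± 0.89 CPM in PC3, 0.62 ± 0.29 in androgen-treated and 0.28 ± 0.03 in vehicle-treated LNCaP. It passed the filter only through PC3, which fixed its direction. PLIN4 was also higher in PC3 (log2 fold change 4.68 against androgen-treated LNCaP) and CIDEB lower (log2 fold change -5.75). Within LNCaP 0 of the 5 tested genes of this list were called (edgeR). By adjusted p alone 2 were higher and 3 lower, where 37.1% and 37.8% of all genes were. The median log2 fold change was -0.14, against 2.02 for HSD17B11.

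**Figure D5:**
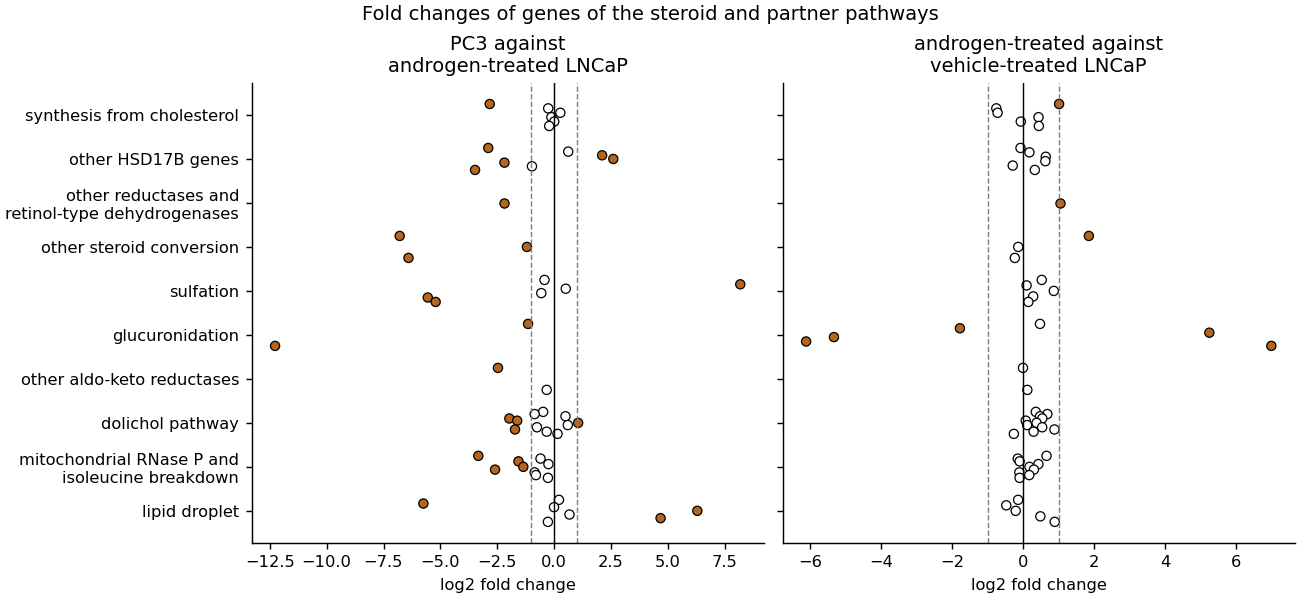
Log2 fold change (horizontal axis) of every tested gene in the 10 pathway lists (rows), for PC3 against androgen-treated LNCaP and for androgen against vehicle. Filled points passed the adjusted p of 0.05 and the fold change of 2 (dashed lines), and genes with 3 counts or fewer in a group are left out. Between androgen and vehicle only CYB5A, RDH11, CYP3A5 and 5 UGT2B genes lie beyond the dashed lines.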

How the data were processed

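The authors deposited STAR gene counts per library, in whole reads on GRCh38, and 1 merged count table, whose 253944 values all equalled the forward-strand counts. Per the labels, polyA RNA was made into libraries with KAPA RNA HyperPrep kits, and the submitters' processing notes name cutadapt 4.1, STAR 2.7.7a and UMI-tools 1.1.2. Columns of no sample numbered 0. Reads not on a gene (20.3% to 25.4% per library, 7.18% to 9.36% multimapping among them) were left out of library sizes. Samples were grouped by cell line and treatment as labelled.

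Fits used the 6 libraries of the 2 groups compared and edgeR 4.0.16 in R 4.3.3 (TMM factors, quasi-likelihood F test, Benjamini-Hochberg over all genes tested) with the study's filter and thresholds. The study's batch term was left out of these fits because the batches are not given in the sources used here. SE is the absolute log2 fold change divided by the square root of F, and intervals of summed-count ratios are exact Poisson intervals. Scripts were tested on simulated data. Alternatives included DESeq2 1.42.0, the likelihood ratio test, other filters, unstranded counts and leaving out each library.

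The 8 members and the lists were chosen with earlier results of these data known. All members are named, with up to 3 called genes of largest absolute log2 fold change per list and comparison, genes a count turns on, and the 3 genes most alike in pattern to each member, of which 1 is not reported here. AKR1D1, AKR1E2, SRD5A2, AKR1C4, TRMT10C and PRORP were named after their values were seen. Annotation came from GENCODE 44, in which 91.1% of the symbols were found, and promoters from RefSeq. Same-numbered androgen-treated and vehicle-treated libraries deviated together (r of 0.171, 0.227 and 0.192 over 11159 genes). Those of different numbers had r of -0.248 to 0.0814. However, PC3 replicate 3 and androgen-treated replicate 1 reached an r of 0.215. A pairing of the LNCaP libraries by number was therefore possible but not established. The main fits and the permutation tests did not use this pairing, and the replicate block was run as an alternative fit. PC3 libraries did not pair with either.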

Additional observations from a re-analysis of the deposited data

How the results depend on the processing

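For the 5 members tested (AKR1C3, SRD5A1, SRD5A3, HSD17B10 and HSD17B11), 0 of 236 log2 fold changes reversed under the alternatives run, and 224 kept their side of the threshold, with 3 weaker and 9 stronger. AKR1C3 gave 16 of these values in each comparison with PC3. Its values say nothing on stability of direction, because its PC3 level fixed that direction. With no filter on low counts, genes called (all, higher, lower) were 9147, 4798 and 4349 for PC3 against androgen-treated LNCaP, 8713, 4475 and 4238 for PC3 against vehicle-treated LNCaP and 2941, 1361 and 1580 for androgen against vehicle. With the adjusted p alone they were 10530, 5379 and 5151, then 10577, 5407 and 5170, then 8763, 4345 and 4418. Members called, AKR1C3 included, became 5 under both settings for PC3 against vehicle-treated LNCaP, and 4 with no filter and 3 with the adjusted p alone for androgen against vehicle. These follow from testing more genes or dropping the fold threshold. Leaving out 1 library, genes called ranged from 5717 to 5830, 5415 to 5616 and 1601 to 1686, and members called from 3 to 4, 2 to 3 and 1 to 1, in the same order, through HSD17B11 alone.

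The replicate block changed 0 of 28 calls that need both thresholds; for SRD5A3 between androgen and vehicle it moved the adjusted p of edgeR to 0.0146. With only uniquely placed stretches as length, AKR1C1 made up 18.1% and AKR1C3 81.2% of the AKR1C total in PC3. With the canonical transcript, a length chosen after seeing the data, they made up 6.02% and 93.6%. The coding length of RefSeq proteins was not run. Depth limits AKR1C1, AKR1C2 and AKR1C3 in LNCaP, at 0 to 11 counts per library.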
